A study of Mus musculus with 6 samples.

Results

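Nuclear genes for the enzymes of oxidative phosphorylation were followed in mouse embryonic stem cells after knockdown of nucleolin (Ncl). Members were taken by gene symbol, as genes named Nduf (series a, b, c, s and v), Sdha to Sdhd, Uqcr, Cox4 to Cox8, Atp5, Cyc1 or Cycs with a probe set of their own. The symbol rule itself uses no measured change, but it was chosen with earlier results of these data known. The symbols gave 92 genes with 184 probe sets, among 18194 genes on the array with a probe set of their own. Of the 92 genes, 84 encode subunits of complexes I to V or cytochrome c, and 8 are assembly factors of complex I, which the Nduf pattern also catches and which are given apart. Each gene was read from its brightest probe set over all arrays.

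Oxidative phosphorylation takes place in the inner mitochondrial membrane. Complexes I and II pass electrons from NADH and succinate to coenzyme Q, complex III passes them on to cytochrome c and complex IV to oxygen, and complexes I, III and IV pump protons that drive the ATP synthase, complex V. Most subunits are encoded in the nucleus and imported, a smaller set including core subunits of complexes I, III, IV and V is encoded in mitochondrial DNA, and pluripotent stem cells are known for drawing much of their ATP from glycolysis as well.

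The cells were E14Tg2a, a mouse embryonic stem cell line, and every group was collected at 96 h. They received a control duplex against firefly luciferase, a sequence foreign to mouse cells, or 1 of a pair of duplexes against Ncl (Ncl siRNA #1 and Ncl siRNA #2), with 2 arrays in each group. Ncl encodes an abundant nucleolar protein of ribosome production. Values are log2 signals of Affymetrix arrays, normalized before deposit by a method not stated, and changes below are log2 differences with their standard error (SE) from limma, called at a Benjamini-Hochberg adjusted p under 0.05 over all 18194 genes. Nothing in the labels says that the arrays of a group came from separate cultures, so that the tests see the spread of these arrays alone, which may be technical.

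The targeted gene went the way of the labels. Ncl read 14.21 on both control arrays, 13.77 and 13.74 under siRNA #1, and 13.77 and 13.72 under siRNA #2, a change of -0.46 ± 0.03 (SE) for the mean of both siRNAs (limma, adjusted p = 3.39e-10), and its other 4 probe sets changed by -1.50 to -0.60. The embryonic stem cell markers Pou5f1 and Nanog were bright on every array, with lowest values of 13.00 and 11.49. Of the 10 stem cell markers listed, however, 7 were called lower and 1 higher in the mean of both siRNAs, with a median of -0.40, and their summed linear level was 87860 and 87330 on the control arrays against 66450 to 76260 on the Ncl siRNA arrays. The control arrays stood apart from all Ncl siRNA arrays in transcripts of other tissues. The summed linear level of 7 airway secretory markers was 9358 and 9552 on the control arrays against 199.6 to 251.2 on the Ncl siRNA arrays, that of 7 alveolar markers 4133 and 4634 against 928.1 to 1023, that of 13 heart muscle markers 917.7 and 1080 against 508.9 to 543.4, and that of 8 fibroblast markers 467.2 and 593.2 against 284 to 301.7. Of these lists, 6 of 7, 6 of 7, 9 of 13 and 5 of 8 genes were called lower and 0 higher, and on all 4 Ncl siRNA arrays the airway markers Scgb1a1, Bpifa1 and Cyp2f2 and the heart markers Tnnt2 and Nppa lay below the lower quartile of signals. Leukocyte markers summed to 2740 and 2937 against 2705 to 2896, and spermatogenic markers to 246 and 244.9 against 194.8 to 222.5. Of the 9 leukocyte markers, however, 2 were called lower and 2 higher in the mean of both siRNAs, with changes from -3.52 to 0.36. The mean signal of 18S ribosomal RNA was 12.19 and 12.02 on the control arrays and 12.96 to 13.20 on the others, and added poly-A control RNAs 7.74 and 7.58 against 8.39 to 8.86. Hybridisation controls went the other way, with 11.98 and 12.07 against 11.15 to 11.25. Actb, read at its 3′ end minus its 5′ end as a measure of RNA integrity, gave 0.45 and 0.51 against 0.23 to 0.29. The same measure for Gapdh overlapped, with -0.02 and -0.03 against -0.05 to 0.02. Where the control arrays stood apart, the differences run along every contrast with them, and their part in the results was not tested. The comparison of siRNA #2 with siRNA #1 uses no control array.

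Subunit genes were mostly lower after Ncl knockdown. In the mean of both siRNAs, 49 of 84 were called lower, 10 higher and 25 not called. Over all 18194 genes 21.7% were called lower and 20.3% higher in the same contrast, 42% in all, and the class counts below stand beside these shares. Genes read from dim probe sets have a larger SE (0.14 for Ndufb4, control mean 4.51) than those read from bright ones (0.03 for Cox6a1, control mean 14.22). Ndufb4 itself also has bright probe sets, which it shares with its copies and which were left out. Most subunit genes are bright and so are called at smaller changes, and no share over genes of like brightness was taken. The median subunit gene changed by -0.20, to 86.9% of its control level, against a median of -0.05 over all genes, and single genes ranged from -0.83 to 0.62. On 50 of the 84 genes all 4 Ncl siRNA arrays lay below both control arrays, and on 10 above, where 26.7% and 23.4% of all genes did so. In a bulk sample fewer cells of a type and less RNA per cell cannot be told apart.

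Both siRNAs gave the pattern. With siRNA #1, 41 subunit genes were called lower and 9 higher (17.3% and 20.2% of all genes, 37.4% together), with a median of -0.18. With siRNA #2, 52 were called lower and 6 higher (21.7% and 17.7% of all genes, 39.5% together), with a median of -0.26. The contrasts share the control arrays. Called lower with each siRNA were 39 subunit genes and higher 6 (14.3% and 15.5% of all genes), and 0 were called in opposite directions. Set against the control mean, the median subunit gene read -0.02 and 0.02 on the control arrays, -0.17 on both siRNA #1 arrays, and -0.28 and -0.25 on the siRNA #2 arrays. Leaving out each array in turn kept 41 of the 49 lower calls and 6 of the 10 higher calls in the mean of both siRNAs.

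**Figure D1:**
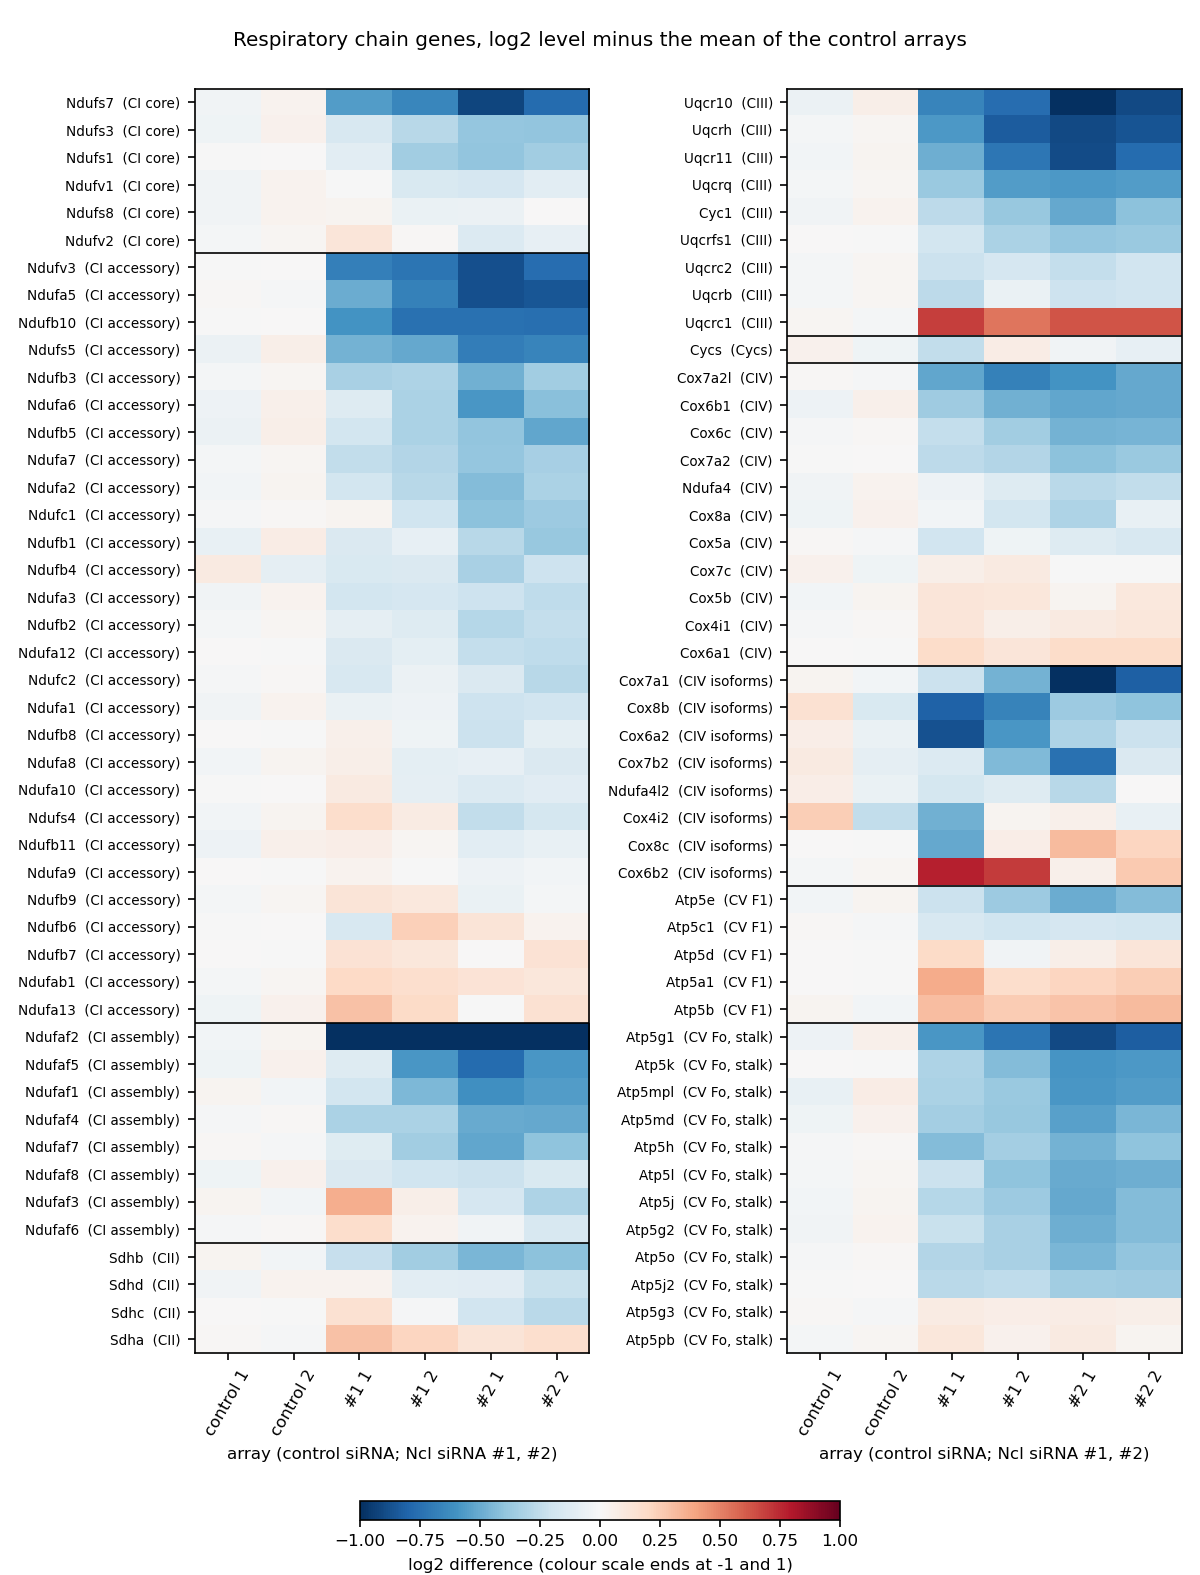
Each row is 1 of the 92 genes, grouped by class and ordered by change within it, and each column 1 array. Colour gives the log2 level minus the mean of both control arrays, blue lower and red higher, with the scale ending at -1 and 1. Complex III and the Fo part and peripheral stalk of complex V are blue in nearly all rows, and Uqcrc1 and Cox6b2 are the reddest.

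**Figure D2:**
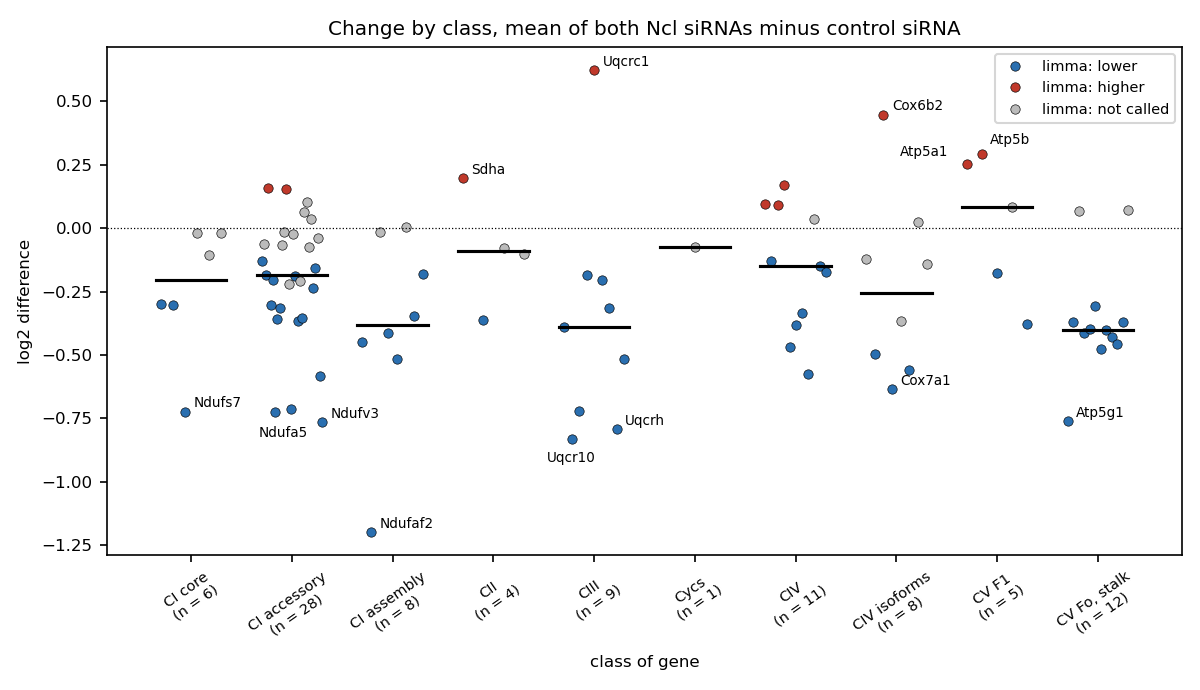
Each point is 1 gene, placed by class, with its log2 difference between the mean of both Ncl siRNAs and the control siRNA. Blue and red points were called lower and higher by limma, grey points were not called, and black bars are class medians. The medians run from -0.40 (Fo part and peripheral stalk) to 0.08 (F1 part of complex V).

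Complex III, which hands electrons from coenzyme Q to cytochrome c, had every measured subunit gene called. Of its 9 genes, 8 fell and Uqcrc1 rose, with a class median of -0.39. Uqcr10, a small subunit, read 12.21 and 12.34 on the control arrays, 11.62 and 11.52 under siRNA #1, and 11.26 and 11.38 under siRNA #2. Every siRNA array lay below the controls, and both siRNA #2 arrays lay below both siRNA #1 arrays. Its change was -0.83 ± 0.05 (SE), to 56.2% of control (limma, adjusted p = 1.53e-11), and its 3 probe sets agreed in direction. Uqcrh, the hinge protein near cytochrome c1, read 13.15 and 13.19, then 12.60 and 12.34, then 12.27 and 12.31, a change of -0.79 ± 0.05. Uqcr11, another small subunit, read 12.25 and 12.30, then 11.79 and 11.55, then 11.38 and 11.51, a change of -0.72 ± 0.06. In both genes the control arrays stood above all others.

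The other genes of complex III had smaller changes. Cyc1, the heme protein cytochrome c1, changed by -0.39 and Uqcrfs1, the Rieske iron-sulfur protein, by -0.32. Uqcrq changed by -0.52 and the core protein gene Uqcrc2 by -0.20. Uqcrb, the brightest probe set of the class, read 14.44 and 14.48 on the control arrays and 14.20 to 14.40 on the others, a change of -0.18 ± 0.04 (limma, adjusted p = 0.00117). Uqcrc1, the other core protein gene, went the opposite way, with 12.28 and 12.24 on the control arrays, 12.95 and 12.80 under siRNA #1, and 12.89 on both siRNA #2 arrays. All 4 siRNA arrays were above both controls, and the change was 0.62 ± 0.04, to 154% of control (limma, adjusted p = 1.6e-10), from a single probe set. Uqcrc1 and its partner Uqcrc2, which together form the core of the complex, were called in opposite directions with each siRNA on these probe sets. The second bright probe set of Uqcrc2, with a control mean of 11.56, changed by 0.02 with siRNA #1 and -0.03 with siRNA #2, and without control array 2 the call of Uqcrc2 with siRNA #1 was lost, at -0.17 (limma, adjusted p = 0.062).

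**Figure D3:**
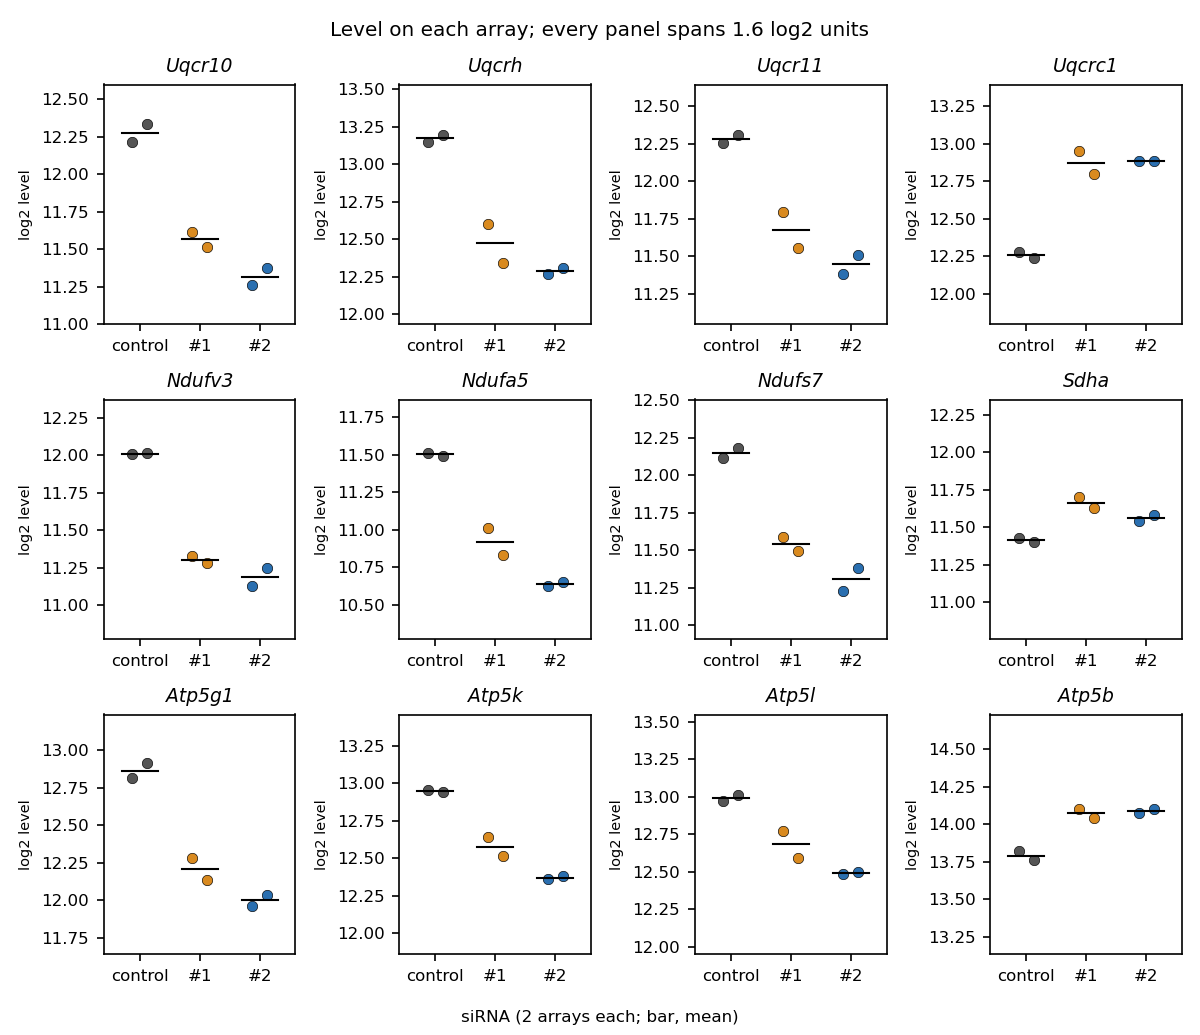
Log2 level on each array for 12 genes of complexes I, II, III and V. Grey points are control arrays, orange points siRNA #1 and blue points siRNA #2, bars are group means of 2 arrays, and every panel spans the same range. On the probe sets shown, Uqcrc1, Sdha and Atp5b lie higher with both siRNAs and the other 9 genes lower. The other probe sets of Sdha were lower.

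Complex V, the ATP synthase, divided by part. Of 12 genes of the membrane part (Fo) and the peripheral stalk, 10 fell and 0 rose, with a class median of -0.40, while of the 5 genes of the F1 part, the catalytic head with its central stalk, 2 fell and 2 rose, with a median of 0.08. Atp5g1, which encodes subunit c of the proton-driven rotor, read 12.81 and 12.92 on the control arrays, 12.28 and 12.13 under siRNA #1, and 11.96 and 12.04 under siRNA #2. The groups followed each other without overlap, and the change was -0.76 ± 0.05, to 59% of control (limma, adjusted p = 2.55e-11). Its second probe set, near background with a control mean of 4.02, changed by 0.02. Subunit c is made from 3 genes with the same mature protein, and they differed. Atp5g2 changed by -0.37 ± 0.05 and was called, with 2 of its 3 probe sets lower, while Atp5g3 read 13.79 and 13.76 on the control arrays and 13.83 to 13.86 on the others, a change of 0.07 ± 0.03 that was not called (limma, adjusted p = 0.118).

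The other called genes of this class moved by less than Atp5g1. Atp5k, subunit e, read 12.96 and 12.94 on the control arrays, 12.64 and 12.51 under siRNA #1, and 12.36 and 12.38 under siRNA #2, a change of -0.48 ± 0.04. Atp5mpl, a small proteolipid of the complex, changed by -0.46 ± 0.05. Atp5md, Atp5h, Atp5l, Atp5j, Atp5o and Atp5j2 changed by -0.43 to -0.31 and were all called lower with each siRNA. Atp5pb, the peripheral stalk subunit b, was the other gene of this class that was not called, at 0.07 ± 0.04.

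In the F1 part, the catalytic subunit gene Atp5b read 13.82 and 13.76 on the control arrays, 14.10 and 14.04 under siRNA #1, and 14.07 and 14.11 under siRNA #2. All 4 siRNA arrays were above both controls, with a change of 0.29 ± 0.04, to 122% of control (limma, adjusted p = 5.28e-07), from a single probe set. Atp5a1, the alpha subunit that alternates with it in the ring, read 13.32 and 13.31, then 13.69 and 13.49, then 13.53 and 13.56, a change of 0.25 ± 0.04 (limma, adjusted p = 6.36e-05). A second bright probe set of Atp5a1 changed by 0.17, but a dimmer one, with a control mean of 9.15, changed by -0.51. Atp5e, the epsilon subunit of the central stalk, read 12.30 and 12.35, then 12.11 and 11.96, then 11.83 and 11.89, a change of -0.38 ± 0.05. Atp5c1, the gamma shaft of that stalk, changed by -0.18 ± 0.04 and was called lower, although its second and dimmer probe set changed by 0.36. Atp5d, the delta subunit, read 12.57 and 12.56, then 12.76 and 12.53, then 12.62 and 12.69, and was not called.

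Promoter sequences of complexes III and V are shown because in both complexes genes that fell stand beside genes that rose, Uqcrc1 in complex III and Atp5b and Atp5a1 in complex V. They are the 150 bases before the annotated start of the lowest pair and of the highest gene among the called members of each complex that have a single promoter entry, from RefSeq on GRCm38.p6: Uqcr10 at chr11:4704345-4704494 on the minus strand, Uqcrh at chr4:116075071-116075220 on the minus strand, Uqcrc1 at chr9:108936498-108936647 on the plus strand, Atp5g1 at chr11:96075632-96075781 on the minus strand, Atp5k at chr5:108434400-108434549 on the minus strand and Atp5b at chr10:128083157-128083306 on the plus strand. Letters run 5′ to 3′ towards the start of the gene, and capitals mark a match to 1 of 3 motifs searched on both strands, the NRF1 motif GCGCANGCG, the ETS motif CCGGAAG and the YY1 motif AAGATGGCG.
Uqcr10: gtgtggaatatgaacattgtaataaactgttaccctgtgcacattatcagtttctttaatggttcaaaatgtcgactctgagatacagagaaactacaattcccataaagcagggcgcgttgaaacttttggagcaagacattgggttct
Uqcrh: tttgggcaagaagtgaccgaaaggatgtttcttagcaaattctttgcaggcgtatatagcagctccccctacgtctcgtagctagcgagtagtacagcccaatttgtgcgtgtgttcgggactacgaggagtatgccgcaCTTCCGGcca
Uqcrc1: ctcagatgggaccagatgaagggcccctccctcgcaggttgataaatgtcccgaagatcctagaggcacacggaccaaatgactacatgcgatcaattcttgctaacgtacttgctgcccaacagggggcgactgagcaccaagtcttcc
Atp5g1: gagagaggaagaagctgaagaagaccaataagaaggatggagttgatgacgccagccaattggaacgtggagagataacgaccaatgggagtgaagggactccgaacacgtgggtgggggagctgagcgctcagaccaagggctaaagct
Atp5k: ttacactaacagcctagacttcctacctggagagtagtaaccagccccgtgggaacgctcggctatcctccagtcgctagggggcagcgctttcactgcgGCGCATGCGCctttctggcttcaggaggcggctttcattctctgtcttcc
Atp5b: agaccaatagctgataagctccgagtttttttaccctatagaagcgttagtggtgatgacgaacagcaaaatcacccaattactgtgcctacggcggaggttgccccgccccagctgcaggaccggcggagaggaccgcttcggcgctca
In these windows the ETS motif matched in Uqcrh and the NRF1 motif in Atp5k, there on both strands with overlap, and the other 4 stretches hold none of the 3 motifs. Just after their starts, outside the stretches printed, Uqcrc1 holds the NRF1 motif and Atp5k the ETS motif. In the full window of 300 bases, from 250 before to 50 after the start, 75 of the 92 genes had an entry, and 52% of them held at least 1 of the motifs, against 25.4% of the 14453 genes on the array with an entry. The shares of the genes with an entry were 28% against 11.4% for NRF1, 25.3% against 15% for ETS and 9.33% against 2.53% for YY1. Among subunit genes, 22 of 40 that fell held a motif (55%), 3 of 8 that rose (37.5%) and 10 of 20 that were not called (50%). A match is only a run of letters and shows no binding.

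Complex I, the NADH dehydrogenase and entry point of most electrons, had 6 core and 28 accessory subunit genes with a probe set of their own. Of the core genes, most of which bind the flavin or the iron-sulfur clusters that electrons pass along, 3 fell, 0 rose and 3 were not called. Ndufs7, which binds the last cluster before coenzyme Q, read 12.11 and 12.18 on the control arrays, 11.59 and 11.50 under siRNA #1, and 11.23 and 11.38 under siRNA #2. The groups did not overlap, and the change was -0.72 ± 0.05, to 60.6% of control (limma, adjusted p = 1.48e-10). The other probe set of Ndufs7, with a control mean of 11.19, fell by less, at -0.26 in the mean of both siRNAs. Ndufs3 changed by -0.30 ± 0.05 and Ndufs1, the largest core subunit, by -0.30 ± 0.06. Not called were Ndufv1, the flavin subunit, at -0.11, Ndufs8 at -0.02 and Ndufv2 at -0.02. All 6 probe sets of Ndufs8 were lower, however, and those not used changed by -0.28 to -0.05. The other probe sets of Ndufv1 changed by -0.05 and 0.20.

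Of the 28 accessory genes, 15 fell and 2 rose, with a median of -0.19. Ndufv3, a small subunit beside the flavin site, read 12.01 and 12.02 on the control arrays, 11.33 and 11.28 under siRNA #1, and 11.13 and 11.25 under siRNA #2. All 4 siRNA arrays lay well below the controls, and the change was -0.76 ± 0.05, to 58.9% of control (limma, adjusted p = 2.82e-11). Ndufa5 read 11.51 and 11.49, then 11.01 and 10.83, then 10.62 and 10.65, a change of -0.72 ± 0.06, and both its probe sets agreed. Ndufb10, of the membrane arm, read 11.93 on both control arrays, 11.33 and 11.18 under siRNA #1, and 11.18 on both siRNA #2 arrays, a change of -0.71 ± 0.05. Ndufs5 at -0.58, Ndufb3 at -0.37, Ndufa6 at -0.36 and Ndufb5 at -0.35 came next. Ndufa1, the brightest probe set of the class, changed by -0.13 ± 0.04, and without control array 2 by -0.10 (limma, adjusted p = 0.217). Without that array Ndufb2 and Ndufc2 also missed the threshold, at -0.17 and -0.15, and of the 4 probe sets of Ndufc2 only 1 moved down.

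The rises in complex I were small. Ndufa13 read 12.63 and 12.71 on the control arrays, 12.97 and 12.86 under siRNA #1, and 12.66 and 12.82 under siRNA #2, so that siRNA #2 overlapped the controls. Its change was 0.16 ± 0.05 (limma, adjusted p = 0.0102), and without control array 1 or siRNA #2 array 2 it was 0.11 and 0.12 and missed the threshold. Ndufab1, the mitochondrial acyl carrier protein that also serves fatty acid and iron-sulfur cluster synthesis, changed by 0.15 ± 0.04 on its brightest probe set, by 0.13 without control array 1 (limma, adjusted p = 0.0745), and by -0.31 on the next brightest. Its 3 other probe sets, dimmer, with control means of 4.22 to 6.25, changed by 0.31 to 0.48.

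The 8 assembly factors of complex I, which help build the enzyme and leave it, held the largest fall among all 92 genes. Ndufaf2 read 10.04 and 10.10 on the control arrays, 9.03 and 8.85 under siRNA #1, and 8.78 and 8.82 under siRNA #2. All 4 siRNA arrays lay far below both controls, and the change was -1.20 ± 0.07, to 43.6% of control (limma, adjusted p = 1.24e-11). In all, 6 of the 8 fell and 0 rose, with Ndufaf5 at -0.52, Ndufaf1 at -0.45, Ndufaf4 at -0.41, Ndufaf7 at -0.35 and Ndufaf8 at -0.18. Without control array 2 Ndufaf8 changed by -0.14, and without siRNA #2 array 1 by -0.16, and in both cases it was not called. Ndufaf3 and Ndufaf6, at -0.01 and 0.00, were not called.

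Complex II, succinate dehydrogenase, is the complex with all its subunits encoded in the nucleus, and its genes differed. Sdhb, the iron-sulfur subunit, read 11.82 and 11.77 on the control arrays, 11.56 and 11.44 under siRNA #1, and 11.34 and 11.38 under siRNA #2, a change of -0.36 ± 0.05 (limma, adjusted p = 3.16e-06). The membrane anchors Sdhc and Sdhd changed by -0.08 and -0.10 in the mean of both siRNAs and were not called there. With siRNA #2 alone both were called lower, at -0.23 and -0.17 (limma, adjusted p = 0.0129 and 0.0405). Neither of these calls held with each array left out in turn. The dimmer probe set of Sdhd, with a control mean of 9.56, changed by -0.52 in the mean of both siRNAs. Sdhc read 10.36 and 10.35, then 10.51 and 10.35, then 10.17 and 10.09, so that only siRNA #2 lay below the controls. Sdha, the flavin subunit, read 11.43 and 11.40, then 11.71 and 11.63, then 11.54 and 11.58 on its brightest probe set, a change of 0.20 ± 0.05 (limma, adjusted p = 0.00166). A second probe set of Sdha, with a control mean of 11.58, changed by -0.66, and a pair of dim ones by -0.21 and -0.16, so the probe sets of Sdha disagree in direction and its transcript cannot be called higher or lower.

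Cytochrome c (Cycs), the mobile carrier between complexes III and IV, read 13.47 and 13.38 on the control arrays, 13.17 and 13.49 under siRNA #1, and 13.38 and 13.34 under siRNA #2. The groups overlapped, and its change of -0.07 ± 0.06 was not called (limma, adjusted p = 0.343).

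Complex IV, cytochrome c oxidase, had 7 of 11 genes of the forms found in most tissues lower and 3 higher, with a median of -0.15. Its catalytic subunits are encoded in mitochondrial DNA and are not among the members. Cox7a2l, which also joins complex III to complex IV in supercomplexes, read 11.62 and 11.60 on the control arrays, 11.09 and 10.93 under siRNA #1, and 11.01 and 11.10 under siRNA #2, a change of -0.58 ± 0.05 (limma, adjusted p = 1.25e-08). All 4 siRNA arrays were below both controls, and all 3 of its probe sets were lower. Cox6b1 changed by -0.47 ± 0.04, Cox6c by -0.38 ± 0.04 and Cox7a2 by -0.33 ± 0.04. Ndufa4, once counted to complex I and now to complex IV, changed by -0.17, Cox8a by -0.15 and Cox5a by -0.13. Calls of these 3 were lost without control array 2 (Ndufa4 at -0.14, Cox8a at -0.11) or control array 1 (Cox5a at -0.12).

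The higher members of complex IV moved by little. Cox6a1, its brightest probe set, read 14.23 and 14.21 on the control arrays, 14.40 and 14.34 under siRNA #1, and 14.40 on both siRNA #2 arrays, a change of 0.17 ± 0.03 (limma, adjusted p = 0.00024), while its other probe set changed by -0.12. Cox4i1, the regulatory subunit 4, changed by 0.10 ± 0.04 and Cox5b by 0.09 ± 0.04. Without control array 1 these were 0.08 and 0.07 and not called, as with each array centred on its median. The 5 other probe sets of Cox5b changed by -0.29 to 0.19. Over all subunit genes with several probe sets, 22 of 28 called lower had every probe set lower, and 0 of 5 called higher had every probe set higher. Uqcrc1, Atp5b and Cox6b2 have a single probe set and kept their call whichever array was left out, and with variances without a trend they were the 3 genes still called higher.

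Tissue isoforms of complex IV replace the common subunits in muscle, heart, lung or testis, and 8 were on the array. In the mean of both siRNAs 3 fell, 1 rose and 4 were not called. This is near the share over all genes, 21.7% lower and 20.3% higher, 42% together. With siRNA #2 alone, 1 was called lower and 0 higher. Cox7a1, the heart and skeletal muscle form of subunit 7a, read 7.90 and 7.84 on the control arrays, 7.65 and 7.40 under siRNA #1, and 6.85 and 7.05 under siRNA #2, a change of -0.63 ± 0.11 (limma, adjusted p = 9.67e-05). The muscle forms Cox8b and Cox6a2 changed by -0.56 ± 0.15 and -0.49 ± 0.13, and without control array 1 by -0.41 and -0.43, with adjusted p = 0.112 and 0.0593 (limma). Heart muscle markers fell in the same contrast, with 9 of 13 called lower and a median of -0.67. Of 9 skeletal muscle markers 3 were called lower and 2 higher, with a median of -0.08, and their summed linear level was 2439 and 2514 on the control arrays against 1486 to 1589 on the others. The part of both lists in the result was not tested. Without the 8 isoforms, 46 of 76 subunit genes were lower and 9 higher.

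Cox6b2, the form of subunit 6b known from testis, read 10.16 and 10.20 on the control arrays, 10.96 and 10.88 under siRNA #1, and 10.23 and 10.45 under siRNA #2. Only the siRNA #1 arrays stood clear of the rest, with a change of 0.74 ± 0.07 (limma, adjusted p = 3.4e-08), against 0.16 ± 0.07 with siRNA #2, which was not called (limma, adjusted p = 0.091). Spermatogenic marker genes, 6 in all, were called lower or higher in 0 cases in the mean of both siRNAs, and in 1 case lower with siRNA #1. Cox8c, another testis form, read 7.99 and 7.98, then 7.47 and 8.05, then 8.30 and 8.20. Cox4i2, the lung form, read 5.78 and 5.28, then 5.05 and 5.56, then 5.58 and 5.46, and was not called with either siRNA. Cox7b2 read 4.16 to 5.0 and Ndufa4l2 6.23 to 6.57 over the 6 arrays, and neither was called.

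**Figure D4:**
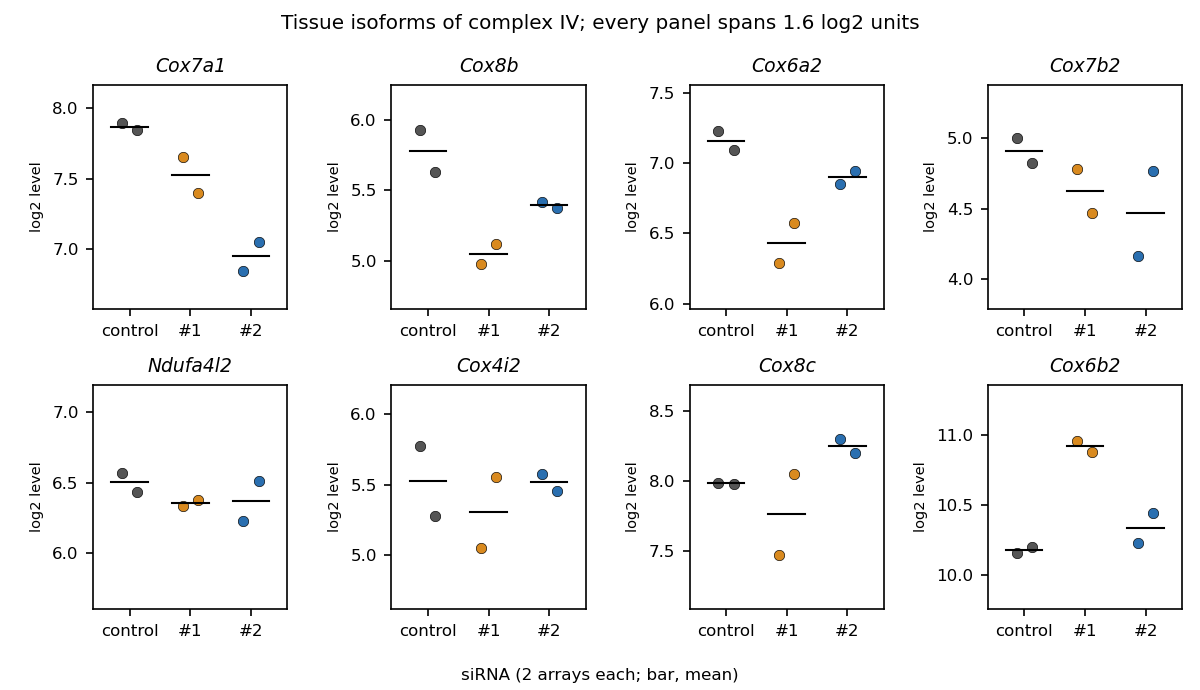
Log2 level on each array for the 8 tissue isoforms of complex IV. Grey, orange and blue points are control, siRNA #1 and siRNA #2 arrays, bars are means of 2 arrays, and every panel spans the same range. Cox6b2 is high on the siRNA #1 arrays alone and Cox7a1 is lowest on the siRNA #2 arrays.

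The siRNAs differed in how far subunit genes moved. Between siRNA #2 and siRNA #1, a contrast without the control arrays, 20 of 84 subunit genes were called lower with siRNA #2 and 1 higher, where 6.18% of all genes were lower and 2.3% higher, 8.48% together. The median difference was -0.12, against -0.03 over all genes, and 70 of the 84 differences were negative. With genes below the median signal left out, the median over all genes was -0.10, close to that of the subunit genes. Both siRNA #2 arrays lay below both siRNA #1 arrays in 55 genes and above in 3 (33.3% and 20.9% of all genes). These calls hung on single arrays. The count of 21 became 3 without siRNA #1 array 1 or without siRNA #2 array 1, 9 without siRNA #2 array 2 and 46 without siRNA #1 array 2, and 2 genes, Ndufc1 and Cox6b2, were called whichever array was left out. With variances that do not follow the signal, 0 were called by limma and 14 had an unadjusted p under 0.05. Pluripotency markers also ran lower with siRNA #2, with 8 of 10 called lower in this contrast and a median of -0.21, while 0 of 7 airway and 1 of 13 heart markers were called, and the part of these marker genes in the result was not tested.

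The largest differences were those of Cox7a1 and Cox6b2, both -0.58, with SE 0.13 for Cox7a1 (limma, adjusted p = 0.00897) and 0.07 for Cox6b2 (limma, adjusted p = 2.22e-05). Among common subunits the largest differences were those of Ndufs4, an accessory subunit of the NADH-binding arm, at -0.34 ± 0.06, and of Ndufc1, at -0.30 ± 0.06. Ndufs4 read 10.84 and 10.74 under siRNA #1 against 10.41 and 10.48 under siRNA #2, on either side of the control arrays at 10.63 and 10.69. Ndufc1 read 12.71 and 12.48 under siRNA #1 against 12.27 and 12.32 under siRNA #2, below both control arrays at 12.68 and 12.69. Sdhc followed at -0.30, then Ndufa5 and Ndufa6 at -0.28. Of the assembly factors Ndufaf3 differed by -0.45 ± 0.09 and Ndufaf4 by -0.19. Cox8c was the gene called higher with siRNA #2, by 0.49 ± 0.14 (limma, adjusted p = 0.0347). The strong movers Uqcrc1 and Atp5b differed by 0.01 and 0.02 between the siRNAs, with 95% intervals of -0.09 to 0.12 and -0.07 to 0.10, and Cox7a2l by 0.04.

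**Figure D5:**
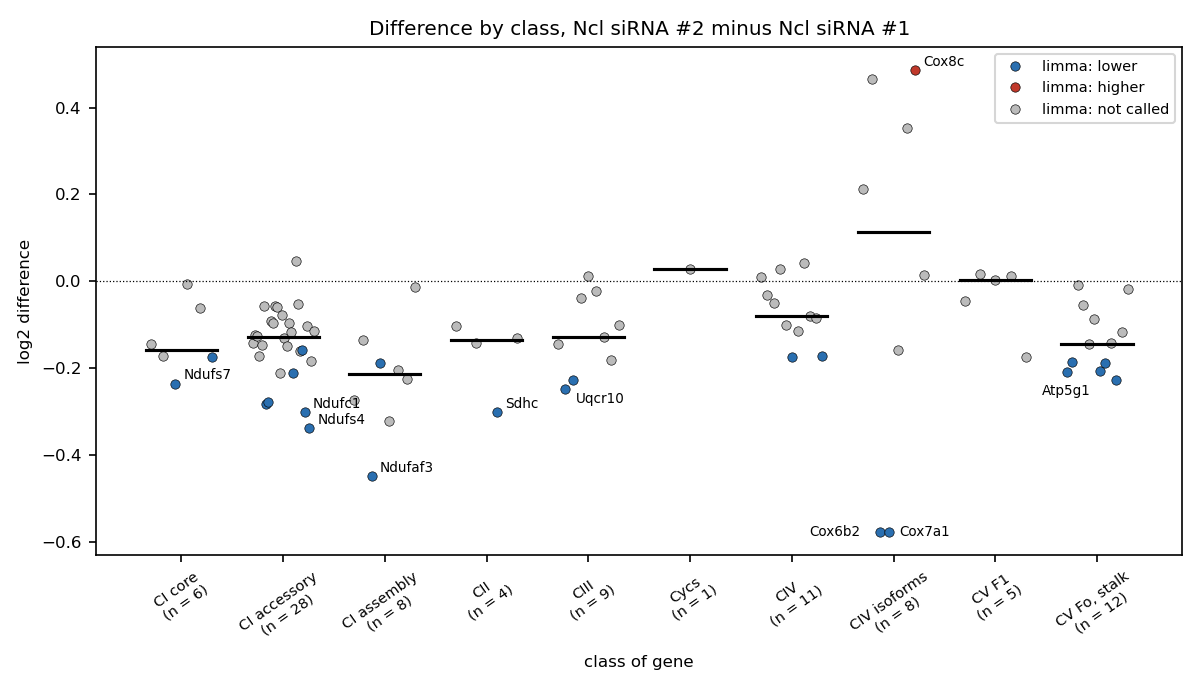
Each point is 1 gene, placed by class, with the log2 difference between siRNA #2 and siRNA #1. Blue and red points were called lower and higher with siRNA #2 by limma, grey points were not called, and black bars are class medians. Most points lie below 0, except for Cycs, in the F1 part of complex V and among the tissue isoforms.

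Genes around the respiratory chain moved in both directions, and the counts of their lists stand beside the 21.7% lower and 20.3% higher over all genes in this contrast. Of 35 measured assembly factors of complexes II to V, 19 fell and 8 rose in the mean of both siRNAs, with a median of -0.18. Cmc1, a complex IV assembly factor, changed by -0.94 and Cox20, a chaperone of its subunit 2, by -0.86, while Sco1, which delivers copper to that subunit, changed by 0.77 and Tmem70, an ATP synthase assembly factor, by 0.52. Of 9 further complex I assembly factors 4 fell and 2 rose. Ecsit changed by -0.70 and Foxred1 by -0.59, while Timmdc1 changed by 0.66 and Acad9 by 0.23.

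Of 18 genes for transcription and upkeep of mitochondrial DNA, 8 fell and 1 rose. Polrmt, the mitochondrial RNA polymerase, changed by -0.55 and Mterf1a, a transcription factor of the organelle, by -0.64, and Polg, the DNA polymerase, by 0.31. The other probe set of Polrmt changed by -0.09 only. Of 18 nuclear regulators of respiratory genes 8 fell and 1 rose. Ppargc1b, a coactivator of mitochondrial genes, read 6.90 and 7.47 on the control arrays and 5.76 to 5.98 on the others, a change of -1.30 ± 0.15 (limma, adjusted p = 4.09e-07). Esrrb, a nuclear receptor that is also a pluripotency factor, changed by -0.84 and Ppard by 0.53. For the factors whose motifs were searched, Nrf1 changed by -0.06 and Yy1 by -0.01, neither called, and Gabpa, an ETS factor, by -0.21 ± 0.05 (limma, adjusted p = 0.00186). The 3 other probe sets of Yy1 changed by 0.02 to 0.53 and those of Nrf1 by -0.05 to 0.13. Nrf1, Yy1 and Gabpa were chosen for the motifs and not by their change.

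The tricarboxylic acid cycle, which supplies the chain with electrons, was divided, with 6 of 16 genes lower and 5 higher and a median of -0.09. Suclg2, of succinyl-CoA synthetase, changed by -0.75 and Dlat, of pyruvate dehydrogenase, by -0.34, while Dld, shared by several dehydrogenases, changed by 0.44 and Ogdh by 0.29. Of 22 genes for carriers, pores and coenzyme Q, 8 fell and 6 rose. Coq2, an enzyme of coenzyme Q synthesis, changed by -0.88 and Dhodh, which passes electrons to coenzyme Q during pyrimidine synthesis, by -0.49. Etfdh, which does so for fatty acid oxidation, changed by 1.09 ± 0.07. The largest rise was that of Slc25a31, the ADP/ATP carrier known from germ cells, which read 5.44 and 5.94 on the control arrays, 8.09 and 8.49 under siRNA #1, and 7.99 and 8.01 under siRNA #2, a change of 2.46 ± 0.14 (limma, adjusted p = 3.38e-12). Among the genes named around the chain, probe sets disagreed for Dld, Ppard and Esrrb, with others at -0.38, at -0.14, and at -1.16 and 0.14, and the second probe sets of Cmc1, Cox20 and Etfdh changed by 0.03, 0.02 and 0.00.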

How the data were processed

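Transcript levels were measured on 6 Affymetrix mouse arrays, 2 for each siRNA. The authors deposited log2 values, already normalized between arrays, and how is not given in the sources used here. No further scaling was applied. Arrays have no read depth, and the number of arrays limits the precision. Of 45101 probe sets, 34958 carried 1 gene symbol in the 2016 platform annotation, 932 several and 9211 none. Only the first kind was used, which left out 10 probe sets of respiratory genes that share symbols. The probe set with the highest mean over the 6 arrays stood for each gene.

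Group means were fitted over the 6 arrays with limma 3.58.1 (R 4.3.3), using a trend of variance with signal, 3 residual and 17.5 prior degrees of freedom, and Benjamini-Hochberg adjustment over 18194 genes at 0.05. Contrasts were each siRNA against control, their mean against control, and siRNA #2 against siRNA #1. On simulated data for the mean contrast it called 14 of 67 genes moved by 0.25, 37 of 59 moved by 0.5, 74 of 74 moved by 1 and 6 of 17994 unmoved ones, over 18194 genes fitted. The moved genes were few and drawn from all brightness levels, while 42% of genes were called in the measured data. The simulated counts therefore do not give the share of changes found among the subunit genes.

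The members, gene lists and tests were chosen with earlier results of these data known. Named are all members of classes of 5 or fewer, the 3 highest and 3 lowest called changes and the brightest gene of larger classes, all tissue isoforms, up to 6 differences between the siRNAs in each direction, and the 2 highest and 2 lowest called changes of each pathway list. Members named beyond this rule were chosen after their values were seen. Alternatives were quantile normalization, median centring, other choices of probe set, a filter on dim genes, variances without a trend, only the arrays compared, a replicate block and leaving out each array. Replicate numbers were not used to pair the arrays in the main fit. Replicate differences of the groups correlated at -0.02 to 0.01 across genes, which shows no shared shift. With 2 arrays in each group this cannot tell whether replicates of the same number were matched.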

Additional observations from a re-analysis of the deposited data

Results flagged for a closer look

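In 23 of the 92 genes the effects of the siRNAs differed by the test of the difference itself (limma, adjusted p under 0.05 for siRNA #2 minus siRNA #1), where 8.48% of all genes did. All but Cox8c, at 0.49, were lower with siRNA #2. The isoforms of complex IV held the largest differences, with Cox7a1 at -0.58 and Cox6b2 at -0.58, and of the assembly factors Ndufaf3 at -0.45 and Ndufaf4 at -0.19. In complex I the differences were those of Ndufs4 at -0.34, Ndufc1 at -0.30, Ndufa5 at -0.28, Ndufa6 at -0.28, Ndufs7 at -0.24, Ndufb5 at -0.21, Ndufv2 at -0.17 and Ndufb9 at -0.16. In complex II Sdhc at -0.30 differed, in complex III Uqcr10 at -0.25 and Uqcr11 at -0.23, and in complex IV Cox6c at -0.17 and Ndufa4 at -0.17. In complex V the genes were Atp5mpl at -0.23, Atp5g1 at -0.21, Atp5k at -0.21, Atp5l at -0.19 and Atp5g2 at -0.19. Of the 21 subunit genes among them, Ndufc1 and Cox6b2 were called whichever array was left out. Groups of 2 arrays are too small for a test of outlying arrays.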

How the results depend on the processing

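Against control, the count of subunit genes called was within 1.5 times the main count under every alternative run except variances without a trend with siRNA #1, which gave 31 in place of 50. The same setting also kept fewer calls in the other contrasts, 40 of 58 with siRNA #2 and 40 of 59 for the mean. Leaving out each array gave 42 to 57 called genes with siRNA #1, 50 to 63 with siRNA #2 and 52 to 63 for their mean, and medians of the subunit genes stayed negative in all contrasts. The median with siRNA #2 was -0.21 after quantile normalization and -0.31 after median centring. With the replicate block 50, 56, 58 and 22 subunit genes were called (siRNA #1, siRNA #2, their mean, siRNA #2 minus siRNA #1) in place of 50, 58, 59 and 21.

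Between the siRNAs, where 21 were called, quantile normalization gave 12, the mean of all probe sets 5 and variances without a trend 0, with 14 at an unadjusted p under 0.05 (limma). Leaving out each array gave 3 to 46 called subunit genes and medians of -0.156 to -0.0939, and median centring a median of -0.15. With 1 array left in a group, that array is assumed to vary like the others.

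Directions that turned did so with the choice of probe set. With the mean of all probe sets Sdha was at -0.21 in each contrast with control, Cox5b at -0.011 for the mean, Atp5a1 at -0.0719 with siRNA #2 and -0.0279 for the mean, and Atp5c1 at 0.0809 with siRNA #1, 0.10 with siRNA #2 and 0.0907 for the mean. Without probe sets ending in _x_at or _s_at, Ndufab1 was at -0.28, -0.34 and -0.31, Atp5c1 at 0.34, 0.38 and 0.36 (siRNA #1, siRNA #2, mean), and Cox5b at -0.0772 with siRNA #1 and -0.12 for the mean.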

Other observations

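Probe sets whose symbol names more than 1 gene were left out of the counts. Those of Ndufs5 with its pseudogene changed by -0.38 in the mean of both siRNAs, a pair shared by Ndufb4 and its copies by -0.38 and -0.63, the bright one of Ndufa11 with its copy by -0.22 and that of Ndufs6 with its copy by -0.16. A probe set of Ndufab1 with its pseudogene changed by 0.07. These have no test. The 1 probe set for ND5, a complex I subunit encoded in mitochondrial DNA, read 12.14 and 12.12 on the control arrays, 11.53 and 11.79 under siRNA #1, and 11.79 and 11.80 under siRNA #2; all 4 siRNA arrays were below both controls. It was looked at after the nuclear genes had been seen.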
